A study of Neurospora crassa OR74A with 15 samples.

Results

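Arginine synthesis in the filamentous fungus Neurospora crassa was followed through 8 genes out of 9733 measured loci: arg-6, arg-5, arg-2, arg-3, arg-12, arg-1 and arg-10, which encode enzymes of the pathway, and cpc-1, which encodes a regulator of amino acid synthesis genes. The 8 genes were chosen by name with their levels on the carbon sources already known, so those levels and their differences are a description. Where the test over all genes called a member, its call is set beside the share of all genes called and supports nothing of its own. RNA was sequenced from mycelia of the wild-type strain FGSC 2489. All cultures grew from 10-day-old conidia for 16 h on 2% sucrose in the light, were washed in medium without carbon, and stood for 4 h in the new medium. That medium held 2% sucrose (3 libraries), 2% xylan, the hemicellulose backbone of hardwoods and grasses (1 library), 1% pectin, a galacturonic acid polymer of plant cell walls (3 libraries), 1% of powdered orange peel, rich in pectin (2 libraries), 2% Avicel, a microcrystalline cellulose (3 libraries), or no carbon source (3 libraries). The replicates are biological, per the design text.

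The 6 libraries from pectin, orange peel powder and xylan were labelled as new, and the 9 libraries from Avicel, sucrose and cultures without carbon as taken from an earlier study. Carbon source and study therefore cannot be told apart when a new group is set against an earlier one. Sucrose, Avicel and no carbon can be compared within the earlier study, and pectin, orange peel powder and xylan within the new one. Levels are in FPKM, fragments scaled to transcript length and to the size of the library, as the authors deposited them. Because FPKM are scaled to transcript length, levels of different genes can be set side by side within a library. Being scaled to library size, they are shares, so differences between libraries also depend on the other genes in each library. Among the earlier libraries the least sequence lay behind Avicel replicate 1 (60.4 mapped megabases, from coverage over FPKM) and sucrose replicate 1 (61.9), against 209 to 1052 in the rest. For the 6 new libraries no depth could be derived. Each of the 8 genes was above 0 in all 15 libraries, from 11.3 to 11796 FPKM, and all 8 passed the filter on low values, which left 8700 genes.

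Fungi build arginine from glutamate. Acetylated intermediates lead to ornithine inside the mitochondrion, carbamoyl phosphate made there by an arginine-specific synthetase joins ornithine to give citrulline, and the last steps in the cytosol turn citrulline into arginine. In N. crassa a lack of one amino acid raises transcription of genes for many amino acids at once, a response called cross-pathway control, and cpc-1 encodes its bZIP activator, the relative of yeast Gcn4.

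The ornithine branch was represented by arg-6 and arg-5. arg-6 (NCU00567, supercontig 10.1, 7977938 to 7981291) encodes the protein that gives rise to acetylglutamate kinase and acetylglutamyl-phosphate reductase. It was measured at 1479, 1089 and 1260.1 FPKM in the 3 sucrose libraries, 514 on xylan, 173, 208 and 311 on pectin, 275 and 262 on orange peel powder, 212, 66.0 and 50.9 on Avicel, and 90.4, 28.8 and 49.4 without carbon. Sucrose stood above xylan and xylan above all others without overlap, while the ranges of orange peel powder and pectin, of pectin and Avicel, and of Avicel and no carbon overlapped. The Avicel mean of arg-6, 110 ± 89.2 FPKM (SD, n = 3), rested on replicate 1, the earlier library with the least sequence, and was 58.5 without it.

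arg-5 (NCU05410, supercontig 10.2, 1549164 to 1551100) encodes acetylornithine aminotransferase. Its level was 931, 1059 and 1172 FPKM on sucrose, 195 on xylan, 34.5, 41.0 and 50.4 on pectin, 69.0 and 48.8 on orange peel powder, 31.2, 14.96 and 12.3 on Avicel, and 20.7, 11.8 and 12.9 without carbon. It had the lowest group mean of the 7 arg genes in all 6 groups. The pectin and orange peel powder libraries overlapped each other but lay above all 6 libraries from Avicel and no carbon, and those groups overlapped.

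Carbamoyl phosphate for arginine is made by an enzyme of a small subunit, arg-2, and a large subunit, arg-3. The arg-2 transcript also carries an upstream open reading frame for the arginine attenuator peptide, which lowers translation when arginine is plentiful, a step that RNA levels do not show. arg-2 (NCU07732, supercontig 10.4, 2061188 to 2063579) reached 2830.1, 4559 and 4072 FPKM on sucrose, 792 on xylan, 195, 214 and 190.4 on pectin, 175 and 181 on orange peel powder, 222, 82.9 and 86.9 on Avicel, and 108, 56.3 and 88.6 without carbon. Each pectin library was above both orange peel powder libraries by a small margin, and Avicel replicate 1 was above them all. The Avicel mean of 131 ± 79.3 FPKM (SD, n = 3) came to 84.9 without replicate 1, next to 84.4 ± 26.3 (SD, n = 3) without carbon.

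arg-3 (NCU02677, supercontig 10.1, 3170432 to 3174790) was measured at 1582, 1885 and 2062 FPKM on sucrose, 774 on xylan, 56.3, 56.0 and 143 on pectin, 132 and 94.9 on orange peel powder, 66.6, 19.8 and 19.0 on Avicel, and 13.5, 11.3 and 22.9 without carbon. Its level without carbon included the lowest value of any of the 8 genes in any library. Below xylan, each group overlapped the next in the order of the means. Single libraries set part of that order: without Avicel replicate 1 the Avicel mean of arg-3 was 19.4 in place of 35.1 ± 27.3 FPKM (SD, n = 3), and without pectin replicate 3 the pectin mean was 56.2 in place of 85.1 ± 50.1 FPKM (SD, n = 3).

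arg-12 (NCU01667, supercontig 10.2, 2759502 to 2761161) encodes ornithine carbamoyltransferase, which joins the products of both branches into citrulline. It stood at 1653, 984 and 933 FPKM on sucrose, 216 on xylan, 184, 186 and 180.0 on pectin, 136 and 142 on orange peel powder, 153, 134 and 137 on Avicel, and 138, 153 and 141 without carbon. Away from sucrose it varied least of the 7 arg genes: Avicel, orange peel powder and no carbon shared 1 range, the 3 pectin libraries lay just above it, and xylan above those.

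The cytosolic steps were represented by arg-1, which encodes argininosuccinate synthase, and arg-10, which encodes argininosuccinate lyase. arg-1 (NCU02639, supercontig 10.1, 3021616 to 3023891) had the highest group mean of the 7 arg genes in all 6 groups. Its level was 6688, 5153 and 5459.8 FPKM on sucrose, 1638 on xylan, 773, 739 and 1000.3 on pectin, 720.0 and 648 on orange peel powder, 545, 441 and 451 on Avicel, and 497, 385 and 696 without carbon. Pectin stood just above orange peel powder, whose range overlapped that of the cultures without carbon.

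arg-10 (NCU08162, supercontig 10.7, 660889 to 662843) was measured at 1949, 2184 and 1694 FPKM on sucrose, 365 on xylan, 92.3, 85.5 and 140.0 on pectin, 111 and 89.1 on orange peel powder, 49.2, 44.6 and 43.8 on Avicel, and 54.3, 42.3 and 66.6 without carbon. Its libraries formed 4 separate levels: sucrose, xylan, pectin with orange peel powder, and Avicel with no carbon.

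The regulator had another order. cpc-1 (NCU04050, supercontig 10.6, 2068182 to 2070001) was measured at 6575, 11796 and 10410.1 FPKM on sucrose, 4957, 4438 and 5343 on Avicel, 5524, 3654 and 4733 without carbon, 3856 on xylan, 1791, 1866 and 1553 on pectin, and 1496 and 1414 on orange peel powder. The 5 pectin and orange peel powder libraries were the lowest, below every other library, and the range without carbon overlapped that of Avicel and the xylan value, which was itself below all 3 Avicel libraries. By its mean FPKM cpc-1 ranked 132 of 9733 loci on sucrose, 127 on Avicel, 77 without carbon, 188 on xylan, 443 on pectin and 461 on orange peel powder. Its rank was thus higher without carbon than on sucrose although its FPKM was lower there, and the sign of that difference depended on the scaling, as given with that comparison.

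**Figure D1:**
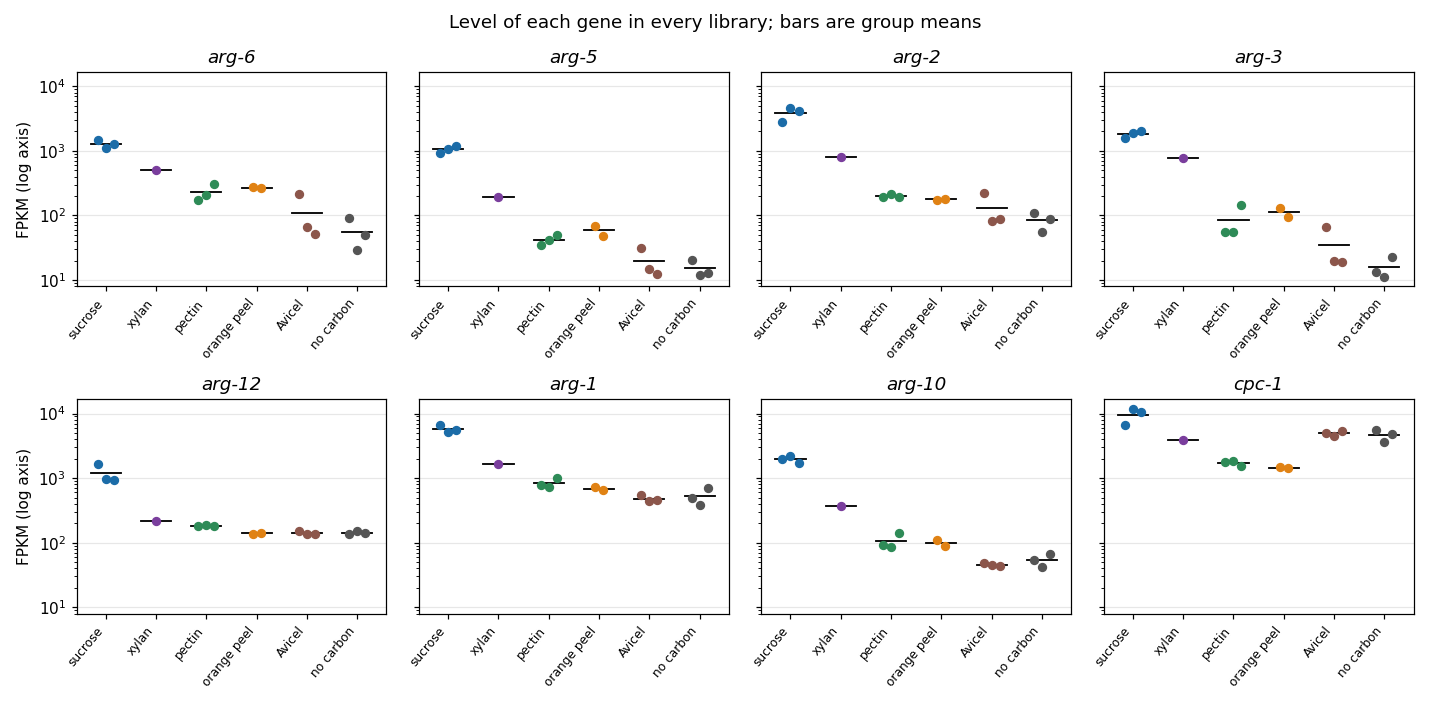
Level of each of the 8 genes (FPKM, log axis) in each of 15 libraries by carbon source, with 1 point per library and a bar at the group mean. For each of the 7 arg genes the 3 sucrose points are highest and the xylan point next. The pectin and orange peel powder points are the lowest for cpc-1, whose lower FPKM on Avicel and without carbon than on sucrose turned into higher values under quantile scaling (log2 differences of 0.23 and 0.60).

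The comparison of starved mycelia with mycelia on sucrose lay within the earlier study. Relative to the sucrose mean, the level without carbon was 0.862% for arg-3, 1.44% for arg-5, 2.21% for arg-2, 2.80% for arg-10, 4.40% for arg-6, 9.11% for arg-1 and 12.1% for arg-12. The means on sucrose were thus 116-fold those without carbon for arg-3 and 8.28-fold for arg-12, with the others between. As log2(FPKM + 1), a scale on which low genes appear to change less than they did, the differences were -6.82 ± 0.48 (SE) for arg-3, -6.06 ± 0.32 for arg-5, -3.49 ± 0.21 for arg-1 and -2.99 ± 0.18 for arg-12. Among 8700 genes ordered from the lowest log2 difference, arg-3 stood at place 9, arg-5 at 19, arg-2 at 44 and arg-10 at 65, arg-6 at 128, arg-1 at 336 and arg-12 at 468.

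A gene was called different when limma, fitted to log2(FPKM + 1) over the 14 libraries of the 5 replicated groups, gave a Benjamini-Hochberg adjusted p below 0.05 and a log2 difference of at least 1 in either direction. By that rule 8 of 8 genes were lower without carbon than on sucrose and none higher, beside 18% and 34.2% of all genes tested. On Avicel 7 of 8 were lower than on sucrose, all but cpc-1, and none higher, beside 18.4% and 30.3%. On pectin 8 of 8 were lower and none higher, beside 14.2% and 26.6%, and on orange peel powder likewise 8 of 8 and none, beside 14.8% and 25.4%. The median log2 difference of the 7 arg genes from sucrose was -5.15 without carbon, -4.99 on Avicel, -4.21 on pectin and -4.02 on orange peel powder, where the medians of all tested genes were 0.38, 0.24, 0.18 and 0.21. The members were picked with this pattern known, the 4 comparisons share the same sucrose libraries, and the comparisons with pectin and orange peel powder cross the 2 studies.

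For cpc-1 the log2 difference from sucrose was -2.43 on pectin and -2.68 on orange peel powder. Without carbon it was -1.03 ± 0.23 (SE) and on Avicel -0.93, and after quantile scaling, which forces all libraries to 1 distribution, these became 0.60 and 0.23. That scaling shifted the median of all tested genes by -0.43 without carbon and by -0.31 on Avicel. The call without carbon was also lost when no-carbon replicate 2 (-0.86), sucrose replicate 2 (-0.86) or sucrose replicate 3 (-0.95) was left out, and without sucrose replicate 1 cpc-1 was called lower on Avicel as well (-1.18). The 7 arg genes kept their sign under that scaling, with medians of -5.13 without carbon and -4.70 on Avicel.

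**Figure D2:**
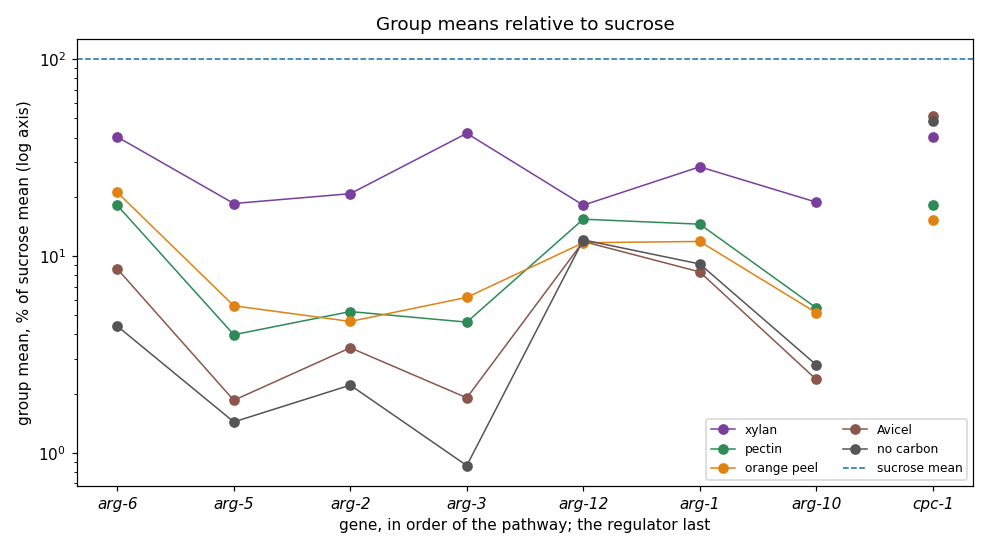
Mean level of each gene on each carbon source as a percentage of its sucrose mean (log axis), in the order of the pathway with cpc-1 last; lines join the arg genes of a group only to guide the eye. The values without carbon run from 0.862% for arg-3 to 12.1% for arg-12, and xylan is highest for each arg gene. cpc-1 stands at 51.2% of sucrose on Avicel and 48.3% without carbon, where quantile scaling reverses the sign, and at 18.1% and 15.2% on pectin and orange peel powder.

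Genes taken here as markers of conidia and aerial hyphae, another cell type that such cultures can hold, moved in the opposite direction to the arg genes between sucrose and no carbon. The summed FPKM of 8 markers was 671 to 1900.0 on sucrose, where con-6, con-8, con-10 and con-13 were each listed at 0 in at least 1 library, against 345997 to 384563 without carbon, 93239 to 158751 on Avicel, 16157 to 42081 on pectin, 15291 to 25854 on orange peel powder and 26316 on xylan, where con-13 was listed at 0. Most of each sum away from sucrose came from ccg-1 and eas, at 243038 ± 66000 and 116679 ± 77851 FPKM without carbon (SD, n = 3 each), and ccg-1 alone was at 24537 on xylan. The sums thus mainly follow ccg-1 and eas and do not measure the share of that cell type. Whether these genes changed within the mycelium itself was not tested. All 8 markers rose without carbon relative to sucrose, beside 34.2% of all genes tested. In contrast, fl and csp-1 were not called on pectin (log2 differences of 0.22 and 0.33) or orange peel powder (0.02 and -0.36). Their part in the levels of the arg genes was not tested. In RNA from whole mycelium, fewer cells of a type and less RNA per cell cannot be told apart.

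On xylan each of the 7 arg members lay between sucrose and the rest. The single library was above all 11 libraries from pectin, orange peel powder, Avicel and no carbon for 7 of 8 members (all but cpc-1), beside 15.9% of tested genes, and in those 7 it was also below every sucrose library, beside 6.77%. Its level as a share of the sucrose mean was 42.0% for arg-3, 40.3% for arg-6, 28.4% for arg-1, 20.7% for arg-2, 18.8% for arg-10, 18.5% for arg-5 and 18.1% for arg-12. arg-3, the gene with the smallest share without carbon, thus had the largest on xylan. The authors' confidence bounds for that library, 720.0 to 829 FPKM for arg-3 and 204 to 227 for arg-12, describe the error of its estimate and not the spread between cultures. The xylan library had no replicate, so no difference from it was tested.

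Avicel and no carbon, both of the earlier study, were not told apart by limma in these genes. The log2 difference of Avicel from no carbon ran from -0.22 ± 0.21 (SE) for arg-10 through 0.28 ± 0.32 for arg-5 to 0.91 ± 0.48 for arg-3. None of the 8 members was called by limma, beside 4.03% of tested genes called higher and 2.33% called lower, and none had an unadjusted p below 0.05. With so few of all genes called, the lack of a call among 8 is no result about the members. The highest values, of arg-3 and arg-6, were those in which Avicel replicate 1 stood 3 or more times as high as the other Avicel libraries. cpc-1 differed by 0.10, and by -0.37 after quantile scaling.

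Pectin and orange peel powder stood above no carbon in part of the pathway. On pectin arg-3 was higher by 2.26 ± 0.48 (log2 difference, SE), arg-6 by 2.12 ± 0.49, arg-5 by 1.44 ± 0.32, arg-2 by 1.28 ± 0.35, arg-10 by 0.94 ± 0.21, arg-1 by 0.70 ± 0.21 and arg-12 by 0.35 ± 0.18. The order of these 7 values ran from arg-3 to arg-12, and each was above 0. On orange peel powder the values were 2.80 ± 0.53 for arg-3, 2.39 ± 0.55 for arg-6, 1.91 ± 0.36 for arg-5, 1.12 ± 0.39 for arg-2, 0.88 ± 0.24 for arg-10, 0.42 ± 0.24 for arg-1 and -0.05 ± 0.21 for arg-12. limma called arg-6, arg-5, arg-2 and arg-3 higher in both comparisons, 4 of 8 members beside 10.4% of tested genes on pectin and 10.4% on orange peel powder.

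Some of these calls rested on single libraries or settings. On orange peel powder the call of arg-2 was lost in 9 of the 14 fits that left out 1 library, with a pseudocount of 0.1, with no filter on low values and with the replicate number as a block, and that of arg-6 when orange peel powder replicate 1 was left out. On pectin the call of arg-2 was lost without no-carbon replicate 2, and arg-10 was called when pectin replicate 1, pectin replicate 2 or no-carbon replicate 3 was left out. All 5 pectin and orange peel powder libraries lay above all 3 no-carbon libraries for arg-6, arg-5, arg-2, arg-3 and arg-10, 5 of 8 members beside 20.2% of tested genes. For arg-5 and arg-10 they also lay above all 3 Avicel libraries, 2 of 8 beside 13.3%. These comparisons cross the 2 studies.

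cpc-1 lay on the other side of no carbon. Its log2 difference was -1.40 ± 0.23 (SE) on pectin and -1.65 ± 0.26 on orange peel powder, and -2.36 and -2.46 after quantile scaling. It was the 1 member called lower, beside 10.9% of tested genes on pectin and 10.7% on orange peel powder. It was also the 1 member for which all 5 pectin and orange peel powder libraries lay below every other replicated library, beside 1.15% of tested genes. The xylan library, from the same study as these 5, stood at 3856 FPKM, close to the lowest of the no-carbon libraries. Of the 8 conidia and aerial hypha markers, 7 were lower on pectin than without carbon and 7 on orange peel powder, and their part in these values was not tested.

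Between orange peel powder and pectin, both of the new study, the log2 differences of the 8 members ran from -0.39 for arg-12 to 0.54 for arg-3. limma called none of them, beside 0.149% of tested genes called higher and 0.161% called lower, and none had an unadjusted p below 0.05.

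The enzymes of the pathway did not keep a fixed ratio to each other. In a complex of a small and a large subunit the level of arg-2 was 1.79 to 2.42 times that of arg-3 within the sucrose libraries, 1.02 times on xylan, 1.33 to 3.82 times on pectin, 1.32 to 1.90 times on orange peel powder, 3.33 to 4.58 times on Avicel and 3.87 to 7.999 times without carbon. All 6 Avicel and no-carbon libraries lay above the 3 sucrose libraries. In the last 2 steps arg-1 was 2.36 to 3.43 times arg-10 on sucrose, 4.49 times on xylan, 6.48 to 7.27 times on orange peel powder, 7.14 to 8.64 times on pectin, 9.09 to 10.4 times without carbon and 9.87 to 11.1 times on Avicel. Sucrose and xylan stood apart from all other libraries in it.

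In the ornithine branch arg-6 was 1.03 to 1.59 times arg-5 on sucrose and 2.64 times on xylan. It was 2.43 to 4.37 times without carbon, 4.13 to 6.80 times on Avicel, 3.98 to 5.37 times on orange peel powder and 5.002 to 6.18 times on pectin. The level of the highest arg gene, arg-1, was 5.47 times that of the lowest, arg-5, in group means on sucrose, 8.41 times on xylan, 11.6 times on orange peel powder, 19.9 times on pectin, 24.6 times on Avicel and 34.7 times without carbon. Among the arg members the spread was thus narrowest on sucrose, where each had its highest mean. Another gene of the pathway, arg-14, averaged 214 FPKM there, below every arg member, and 167 on xylan. With arg-14 included, sucrose would not be narrowest.

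**Figure D3:**
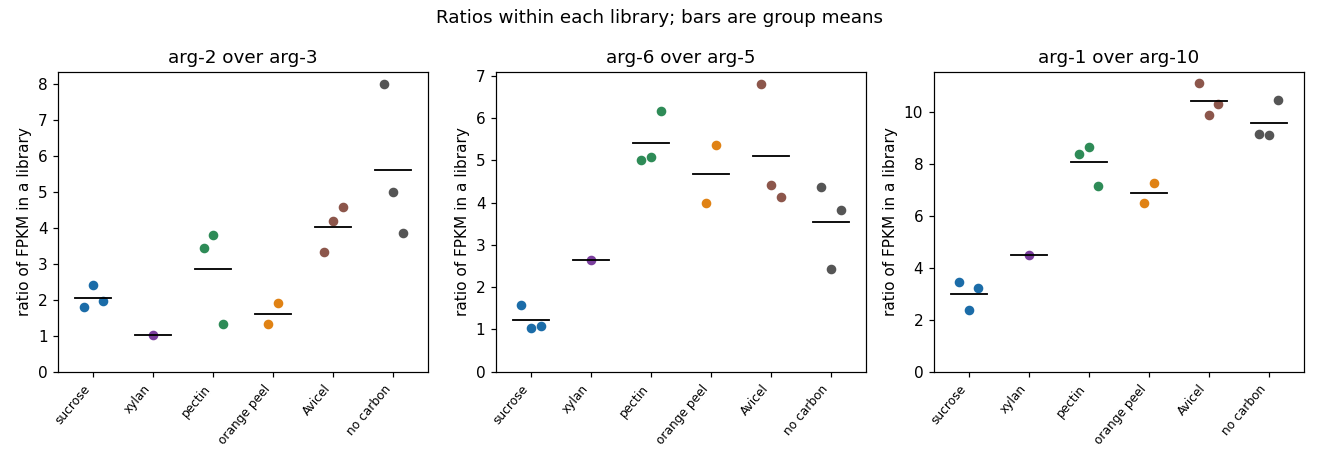
Ratio of FPKM of arg-2 to arg-3, arg-6 to arg-5 and arg-1 to arg-10 within each library (linear axes from 0), with 1 point per library and a bar at the group mean. In the arg-1 to arg-10 panel the sucrose points lie at 2.36 to 3.43 and the Avicel points at 9.87 to 11.1. In the arg-2 to arg-3 panel pectin spreads from 1.33 to 3.82.

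The ratio of cpc-1 RNA to RNA of the arg members differed more than any of these. The level and activity of the regulator protein were not measured. cpc-1 was 3.27, 6.03 and 5.34 times the geometric mean of the 7 arg genes in the sucrose libraries, 7.70 times on xylan, 13.2, 13.1 and 7.96 times on pectin and 8.61 and 9.36 times on orange peel powder. It was 40.6, 69.7 and 89.1 times that mean on Avicel and 76.5, 77.1 and 67.4 times without carbon. Avicel and no carbon lay far above all other libraries, xylan lay just below pectin and orange peel powder, and those 2 groups overlapped.

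Other genes of the pathway and of the amino acid network were drawn from 8 lists, in which 32 loci outside the members were found under a symbol and tested. The lists, like the members, were chosen with earlier results of these data known. Their counts and p-values are therefore a description and not independent evidence. arg-4, which encodes the acetylornithine-glutamate transacetylase of the ornithine branch, was highest on sucrose and next on xylan, as the arg members were: 2330 ± 534 FPKM on sucrose (SD, n = 3), 403 on xylan, 198 ± 11.9 on pectin (SD, n = 3), 172 ± 10.7 on orange peel powder (SD, n = 2), 135 ± 27.9 on Avicel (SD, n = 3) and 92.5 ± 17.4 without carbon (SD, n = 3). It fell without carbon relative to sucrose by 4.63 ± 0.19 on the log2 scale (SE; limma adjusted p = 4.28e-09) and rose on pectin relative to no carbon by 1.10 ± 0.19 (adjusted p = 0.00126). arg-13, which encodes a mitochondrial carrier of basic amino acids, fell without carbon by 1.41 ± 0.41 (adjusted p = 0.00912).

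arg-14, which encodes acetylglutamate synthase, the first enzyme of the pathway, was not called in any of the 8 comparisons. Its level was 214 ± 11.5 FPKM on sucrose, 259 ± 38.8 on pectin, 233 ± 50.6 on Avicel and 248 ± 44.0 without carbon (SD, n = 3 each), 229 ± 1.06 on orange peel powder (SD, n = 2) and 167 on xylan. Its difference without carbon from sucrose was 0.19 ± 0.19 (log2, SE; limma adjusted p = 0.367). On xylan, where the 7 arg members stood above all but the sucrose libraries, the arg-14 value was below the mean of each other group.

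Among genes that use or take up arginine and ornithine, all 5 found fell without carbon relative to sucrose, beside 18% of all genes tested. spe-3, the spermidine synthase gene, fell by 4.02 ± 0.40 (log2, SE; limma adjusted p = 2.56e-06), pmb, a basic amino acid permease gene, by 3.74 ± 0.48 (2.36e-05), spe-1, the ornithine decarboxylase gene, by 3.67 ± 0.35 (1.86e-06), and spe-2 by 3.29 ± 0.25 (2.34e-07). On pectin 4 of 5 rose relative to no carbon, beside 10.4% of all genes tested. These were pmb by 2.26 ± 0.48 (0.00378), spe-1 by 2.11 ± 0.35 (0.000843), spe-3 by 1.80 ± 0.40 (0.00457) and spe-2 by 1.62 ± 0.25 (0.000463). ota, the ornithine transaminase gene, was the 1 not called there, at 0.63 ± 0.32 (0.146). The direction in these called genes was that of the arg members.

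Carbamoyl phosphate is also made for pyrimidines, by the enzyme that pyr-3 encodes. pyr-3 fell without carbon relative to sucrose by 3.96 ± 0.52 (log2, SE; limma adjusted p = 2.67e-05), and pyr-4 was at -0.84 ± 0.36 (0.0531). On pectin pyr-3 stood at 1.28 ± 0.52 from no carbon (0.0746), the same difference as that of arg-2 with a larger error. Its 3 Avicel libraries averaged 138 ± 134 FPKM (SD, n = 3).

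Cross-pathway control names 2 further genes. cpc-3, which encodes a kinase related to yeast Gcn2, was not called without carbon relative to sucrose (0.38 ± 0.31, log2, SE; limma adjusted p = 0.283) and had 98.6 ± 43.0 FPKM on sucrose and 122 ± 16.2 without carbon (SD, n = 3 each). cpc-2, which encodes a ribosome-associated protein of the RACK1 type, fell by 4.77 ± 0.57 (1.32e-05), from 33951 ± 7023 FPKM to 1351 ± 768 (SD, n = 3 each), and rose on pectin relative to no carbon by 2.59 ± 0.57 (0.00459). On xylan cpc-2 was at 6179 FPKM, below each pectin library (6350.4 to 9959) and each orange peel powder library (6984 to 7962), where every arg member was above them.

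The wider lists, also chosen with earlier results known, moved with the arg genes between sucrose and no carbon. Of 10 tryptophan and aromatic amino acid genes 10 fell, led by aro-3, the chorismate synthase gene, by 5.41 ± 0.27 (log2, SE; limma adjusted p = 1.26e-08) and aro-1, which encodes the multifunctional arom protein, by 5.27 ± 0.28 (2e-08). Of 4 histidine genes 4 fell, of 3 proline genes 3 and of 3 lysine genes 3, with lys-3 at -6.46 ± 0.39 (5.08e-08). In all, 29 of 32 listed genes fell and none rose (the exceptions were arg-14, pyr-4 and cpc-3), with a median of -3.26. Of all genes tested, 18% were called lower and 34.2% higher in that comparison. The corresponding counts were 30 lower on Avicel, 28 on pectin and 27 on orange peel powder, and none higher. Beside them, 18.4%, 14.2% and 14.8% of all genes tested were called lower. On sucrose all 8 members and 27 of the 32 listed genes had every library above every other replicated library, beside 18.9% of tested genes.

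Against no carbon the listed genes were divided. Of all genes tested, 10.4% were called higher and 10.9% lower on pectin, and 10.4% and 10.7% on orange peel powder. On Avicel these shares were 4.03% and 2.33%. On pectin 12 of 32 rose, none fell and the median was 0.61, and on orange peel powder 15 rose, none fell and the median was 0.95, a count that dropped to 6 without orange peel powder replicate 1 and to 9 without replicate 2. On Avicel 3 rose, all of the tryptophan and aromatic list: trp-3, the tryptophan synthase gene, by 2.45 ± 0.38 (log2, SE; limma adjusted p = 0.00129), aro-6 by 2.25 ± 0.30 (0.000406) and aro-8 by 1.26 ± 0.18 (0.000862). No arg member was called in that comparison. Between orange peel powder and pectin none of the 32 was called by limma, and 3 (trp-3, lys-6 and his-6) had an unadjusted p below 0.05. Of the 8 conidia and aerial hypha markers, 8 rose without carbon, 7 on Avicel, 6 on pectin and 6 on orange peel powder relative to sucrose. The shares of all genes tested called higher there were 34.2%, 30.3%, 26.6% and 25.4%. On Avicel relative to no carbon 1 marker (con-13) fell. Their part in the listed genes was not tested.

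**Figure D4:**
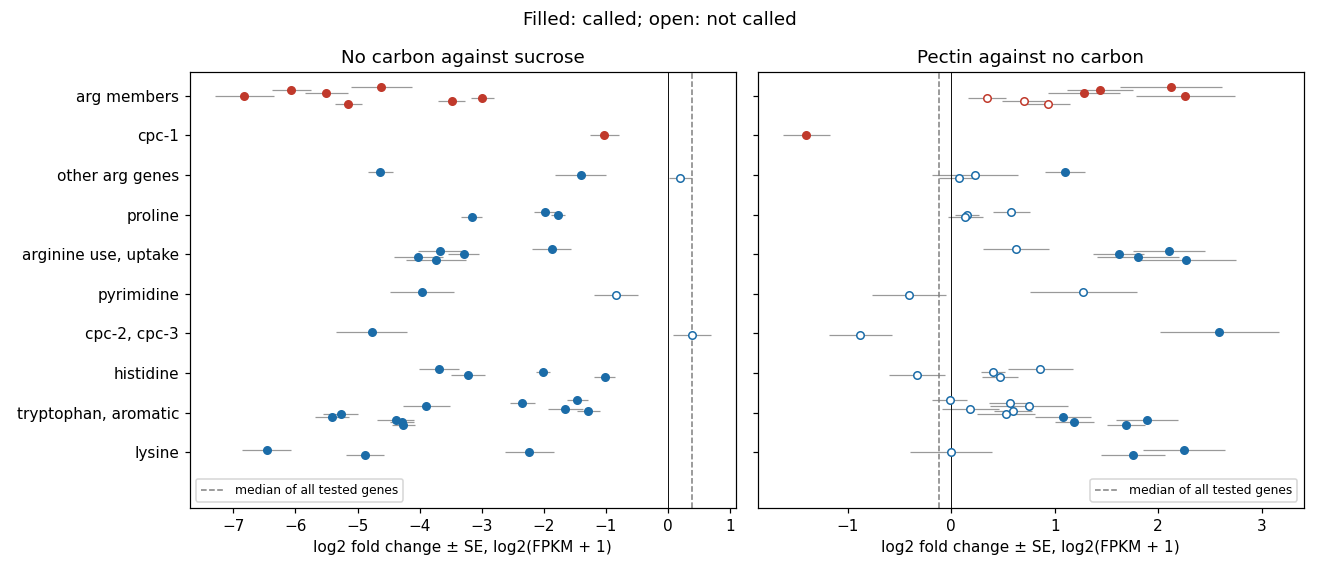
Log2 differences (on log2(FPKM + 1), ± SE) of the members (red) and the listed genes (blue) for no carbon against sucrose and for pectin against no carbon; filled points were called by limma, and the dashed line is the median of all tested genes. The 7 arg members lie from -6.82 to -2.99 in the first panel and from 0.35 to 2.26 in the second. cpc-1 lies at -1.03, which became 0.60 under quantile scaling, and at -1.40.

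Likeness of pattern was measured as the root mean square difference of log2(FPKM + 1), centred on each gene's mean, over the 15 libraries, among 7745 other genes that averaged 10 FPKM or more. The genes most like the mean of the 7 arg members were ad-5 (0.33), aro-3 (0.34), ace-3 (0.35), arg-4 (0.35) and NCU08535 (0.41). The 7 arg members are themselves part of that mean. Of them arg-2 and arg-10 were nearest to it (0.34 each), then arg-5 (0.47), arg-1 (0.55), arg-6 (0.56), arg-3 (0.82) and arg-12 (0.84). Among the other genes 249 were nearer to it than arg-3 was, and 280 were nearer than arg-12. cpc-1 was at 1.61, and 1932 of the 7745 other genes were nearer. The genes most like cpc-1 were NCU04671 (0.39), NCU00560 (0.48), NCU08227 (0.48), NCU08402 (0.48) and NCU04344 (0.49). The 15 libraries share 2 studies and 6 media, so likeness over them is a description.

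Where the span of a member overlaps a neighbouring locus, the level of that neighbour is given. The reads themselves were not examined. arg-12 overlaps NCU01666 by 100 bases, 6.02% of its span. NCU01666 was at 3508 ± 358 FPKM on sucrose (SD, n = 3) and 1308 on xylan. It was at 223 ± 20.2 on orange peel powder (SD, n = 2), and at 186 ± 37.0 on pectin, 178 ± 9.96 on Avicel and 173 ± 13 without carbon (SD, n = 3 each). Like arg-12, it was thus highest on sucrose, next on xylan and varied little among the other groups. Among those, orange peel powder had the highest mean of NCU01666 and the lowest of arg-12. Neither locus was called by limma between orange peel powder and pectin or between orange peel powder and no carbon. arg-3 overlaps NCU02678 by 103 bases, 2.36% of its span, and NCU02678 had 71.4 ± 32.6 FPKM on sucrose and 57.4 ± 13.6 without carbon (SD, n = 3 each). Whether reads of the overlap were counted to both loci is not given in the sources used here.

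In the earlier libraries, whose tables list transcripts, arg-1 and arg-2 had 2 transcripts each. The shorter arg-2 transcript, of 1893 bases, held 90.2% to 99.8% of the FPKM of the locus, and the shorter arg-1 transcript, of 1776 bases, 97.4% to 99.9%. The levels above are sums over both. In the authors' deposited table of pooled FPKM all entries of the 8 genes, 10 in number because arg-1 and arg-2 appear there 2 times, belonged to the same 1 of 17 clusters, cluster 15, which held 2742 of its 8664 entries. The authors' deposited table gave 0.766 to 1.00 times the library means used here, at 1.00 for the new groups and below it for the earlier ones. In the earlier groups the ratio differed between genes, on sucrose from 0.766 for arg-2 to 0.892 for arg-1. Differences between a new and an earlier group therefore depend on which levels are used. For cpc-1 the pooled level without carbon was 3676 FPKM in place of 4637, beside 1736.5 on pectin in both. The cause was not tested.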

How the data were processed

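Per the labels' protocols, libraries were made from oligo dT selected RNA with random primers. The authors deposited FPKM for each library, and a table of FPKM pooled per carbon source. TopHat 1.2.0, Cuffdiff and Cufflinks 0.9.3 are listed, with no roles, per the submitters' processing notes, and the genome build is not given in the sources used here. Tables of the 6 new libraries are by gene, and those of the 9 earlier libraries are by transcript with a coverage signal, per the file headers. Transcript FPKM were summed per locus and joined by coordinates: 9733 of 9733 loci, 863 of them under another identifier. Every per-sample column was mapped to a sample. Positions count from 1.

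RefSeq's NC12 gene table gave the symbols. The 8700 genes averaging 1 FPKM or more over 14 libraries were tested with limma 3.58.1 in R 4.3.3 on log2(FPKM + 1) with a variance trend (residual degrees of freedom 9, prior 2.94); xylan, with 1 library, stayed out of the fit. Adjusted p-values are Benjamini-Hochberg over all tested genes, 2-sided. The code was tested on simulated data. The members and lists were chosen with earlier results of these data known. Of the listed genes, up to 4 called per list and comparison with the largest change are named as changed, and others with values only; the 5 nearest genes are named for likeness. The 8 lists gave 3 of 5 other arginine genes, 3 of 3 proline, 5 of 10 arginine use and uptake, 2 of 6 pyrimidine, 2 of 2 general control, 4 of 7 histidine, 10 of 16 tryptophan and aromatic and 3 of 6 lysine symbols; the other symbols were not analysed here. FPKM hold no whole counts, so no counting interval is given.

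Groups share replicate numbers. Of 26 pairs with the same number, 9 had correlated deviations from their group means over 0.1 (range -0.31 to 0.45), so the main fit did not pair libraries by number. All 3 pairs of Avicel and sucrose exceeded 0.1 (0.18, 0.12 and 0.18), and that comparison too was fitted without pairing. With the replicate number as a block, 7 members were called in it, as in the main fit. Alternatives were a pseudocount of 0.1, no filter, quantile scaling, the replicate number as a block, leaving out Avicel replicate 1 with sucrose replicate 1, leaving out each library, and, chosen after seeing the data, fitting each study alone.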

Additional observations from a re-analysis of the deposited data

How the results depend on the processing

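The counts of called genes stayed within 1.5 times under each alternative except as follows. For orange peel powder against pectin, 27 genes were called, 15 with the replicate number as a block, 161 without Avicel replicate 1 and sucrose replicate 1, and 160 in the libraries of that study alone, a fit chosen after seeing the data; leaving out 1 library at a time gave 4 to 70, and the cause was not tested. For orange peel powder against no carbon, leaving out 1 library gave 807 to 2132 called genes (1838 with all, 2352 without Avicel replicate 1 and sucrose replicate 1), 3 to 5 of the 8 members (5 with all) and 6 to 16 of the 32 listed genes (15 with all), the lowest each time without orange peel powder replicate 1, which leaves 1 library in that group; the lone library is assumed to vary like the others. The replicate block changed the count of called members only on orange peel powder against no carbon, from 5 to 4 by the loss of arg-2, as did a pseudocount of 0.1 and no filter.

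Quantile scaling reversed cpc-1 without carbon against sucrose (0.60 in place of -1.03) and moved it on Avicel to 0.23. The share of called genes that were higher than on sucrose went from 65.5% to 50.4% without carbon, 62.2% to 48.4% on Avicel, 65.2% to 45.6% on pectin and 63.3% to 44.9% on orange peel powder, and for orange peel powder against pectin from 48.1% to 59.0%. It shifted the median of all tested genes by -0.43, -0.31, -0.37 and -0.39 in the 4 sucrose comparisons. In fits within 1 study, 8 members were called among 4419 genes without carbon against sucrose, 7 among 4010 on Avicel against sucrose and 0 among 387 on Avicel against no carbon. Among the earlier libraries, low values are least precise in Avicel replicate 1 and sucrose replicate 1, and no depth is known for the new libraries. The single xylan library listed 1871 of 9733 loci at 0, against 1684 in Avicel replicate 1 and 2341 in sucrose replicate 1.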
